A study of Mus musculus with 6 samples.

Results

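Prostanoid receptors and synthases are the proteins that make and sense prostaglandins, prostacyclin and thromboxane. The 10 genes described here are the receptor genes Ptgfr, Ptger1, Ptger2, Ptger3, Ptger4, Ptgir and Tbxa2r and the synthase genes Ptgs1, Ptgs2 and Ptgis, out of 54429 genes in the deposited table. They were taken by symbol, and the family was chosen on the level of Ptgfr, which was among the genes with the largest falls in Meis1-OE EC, so the values of Ptgfr are given as a description with no test. The other 9 genes belong to the same family, and they were taken with results of this contrast known. Of the 10, 6 passed edgeR's filter on low counts (Ptgfr, Ptger1, Ptger4, Ptgs1, Ptgs2 and Ptgis), and Ptger2, Ptger3, Ptgir and Tbxa2r did not.

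The cells were primary aortic endothelial cells (EC) of adult WT mice of the C57BL/6 strain, in culture. Both groups received a lentiviral vector, either one that carried Meis1 (Meis1-OE, n = 3 libraries) or a YFP control vector (YFP-CTRL, n = 3 libraries), and both were sorted as YFP+CD31+VEC+ cells at 72 h and then grown to confluency before harvest. There was no untransduced group among these libraries, and the promoter that drives Meis1 in the vector is not given in the sources used here. Libraries carry the letters A, B and C in the deposited table, and where 3 values of a condition are given they are always in that order. Levels are given as CPM, a library's counts scaled to a common total after trimmed mean of M values (TMM) normalisation.

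Library totals ran from 34176592 to 47956569 counts, at which 3 counts, the limit that a count of 0 allows, correspond to 0.0648 to 0.0883 CPM. Meis1 stood at 2961 to 3477 CPM in the 3 Meis1-OE libraries and at 1.148 to 1.871 CPM in the 3 YFP-CTRL libraries, with vector and endogenous reads counted together. The endothelial label was met in both groups, with all 12 listed endothelial markers detected at sums of 3800 to 4750 CPM in Meis1-OE and 4680 to 6520 CPM in YFP-CTRL. Cdh5 (VE-cadherin) had means of 1316 and 2143 CPM in these groups and did not pass the threshold (edgeR adjusted p = 0.0535). Kdr, at 319.2 and 750.8 CPM, did not pass either (edgeR adjusted p = 0.0504). In both genes every Meis1-OE library lay below every YFP-CTRL library. Of the 12, Vwf (63.03 and 7.249 CPM) and Cldn5 (204.3 and 58.29 CPM) were called higher and Tek (45.51 and 78.19 CPM) was called lower in Meis1-OE. Summed levels of 6 smooth muscle markers were 202 to 238 CPM in Meis1-OE and 95.7 to 240 CPM in YFP-CTRL, most of it Smtn. Of 7 macrophage markers 4 were at 0 in all 6 libraries, and the list summed to at most 1.45 CPM. The 5 platelet markers summed to 2.72 to 3.78 CPM in Meis1-OE and 2.24 to 3.30 CPM in YFP-CTRL, with Itga2b the most abundant. Of the 3 tested, Gp9 was called higher, at 35, 46 and 54 counts in Meis1-OE and 0, 2 and 8 in YFP-CTRL. The other 2 did not pass. Gp9 passed the filter on low counts through the Meis1-OE libraries alone. The YFP-CTRL libraries stood apart from each other in 15 proliferation genes. The mean log2(CPM + 1) of these genes, called the proliferation score below, was 4.09, 5.15 and 6.39 in YFP-CTRL and 6.41, 6.39 and 6.45 in Meis1-OE.

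Prostanoid synthesis starts when phospholipases free arachidonate from membrane lipids. The cyclooxygenases COX-1 (Ptgs1) and COX-2 (Ptgs2) convert it to prostaglandin H2, which terminal synthases turn into the single prostanoids, among them prostacyclin, made by Ptgis. Each prostanoid leaves the cell and acts on G protein-coupled receptors. FP (Ptgfr), EP1 (Ptger1) and TP (Tbxa2r) act mainly through Gq and calcium, EP2 (Ptger2), EP4 (Ptger4) and IP (Ptgir) raise cAMP through Gs, and EP3 (Ptger3) lowers cAMP through Gi. In vessels, endothelial prostacyclin is best known for relaxing smooth muscle and restraining platelets, and COX-2 for its induction by inflammatory signals.

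The start sites of the 4 members with the clearest differences between conditions are shown because Meis1 is a DNA-binding homeodomain protein. The sequences run 5' to 3' on the gene's strand, from 250 bases before to 30 bases after a RefSeq start site in GRCm38.p6, and they lie at chr3:151837499-151837778 (minus strand) for Ptgfr, chr15:5244158-5244437 (minus strand) for Ptger4, chr2:36230176-36230455 (plus strand) for Ptgs1 and chr1:150099781-150100060 (plus strand) for Ptgs2. Capitals mark matches, on either strand, to TGACAG, the Meis core motif, or to ACGTCA, a cAMP response element half-site. These motifs do not overlap each other in these windows, and the start site shown for Ptgs1 lies downstream of the annotated start of the gene.
Ptgfr: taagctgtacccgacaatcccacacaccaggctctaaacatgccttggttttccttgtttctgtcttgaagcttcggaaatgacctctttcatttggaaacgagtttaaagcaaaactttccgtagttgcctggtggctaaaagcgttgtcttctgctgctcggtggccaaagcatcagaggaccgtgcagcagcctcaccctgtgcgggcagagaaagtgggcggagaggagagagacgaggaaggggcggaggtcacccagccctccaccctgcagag
Ptger4: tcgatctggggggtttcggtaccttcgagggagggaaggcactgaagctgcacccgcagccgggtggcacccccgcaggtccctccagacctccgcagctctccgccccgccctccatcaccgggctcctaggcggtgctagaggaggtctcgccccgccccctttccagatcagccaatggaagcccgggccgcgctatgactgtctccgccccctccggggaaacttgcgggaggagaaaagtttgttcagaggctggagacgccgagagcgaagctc
Ptgs1: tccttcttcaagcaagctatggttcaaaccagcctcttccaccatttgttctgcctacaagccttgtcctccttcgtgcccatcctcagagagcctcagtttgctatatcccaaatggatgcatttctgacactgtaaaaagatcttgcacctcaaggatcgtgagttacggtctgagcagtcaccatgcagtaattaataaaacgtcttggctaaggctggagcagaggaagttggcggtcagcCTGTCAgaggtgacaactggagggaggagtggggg
Ptgs2: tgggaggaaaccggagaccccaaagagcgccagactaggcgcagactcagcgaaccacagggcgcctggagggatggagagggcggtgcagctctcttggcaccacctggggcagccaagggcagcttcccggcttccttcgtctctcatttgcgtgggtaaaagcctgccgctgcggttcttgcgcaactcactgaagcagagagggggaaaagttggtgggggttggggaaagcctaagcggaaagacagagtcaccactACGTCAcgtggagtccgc
TGACAG was found, on the opposite strand, in the Ptgs1 window with its first base at -5 from the start site, and ACGTCA in the Ptgs2 window at +13. The windows of Ptgfr and Ptger4 held neither. RefSeq gave windows for 8 of the 10 members, 9 windows in all, of which 4 held TGACAG (Ptgs1, Ptgir and both windows of Tbxa2r) and 1 held ACGTCA. Over all 32851 RefSeq windows of 280 bases, 17.8% held TGACAG and 7.3% held ACGTCA. A match describes these letters and is no measure of binding.

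Among the synthases, the cyclooxygenase isoforms differed between the conditions in opposite directions, with Ptgs1 higher and Ptgs2 lower in Meis1-OE EC. Ptgs1 (Entrez 19224, chromosome 2, 36216742 to 36258593 in GRCm38.p6) encodes COX-1, the isoform that many tissues express constitutively. It stood at 88.83, 95.25 and 87.25 CPM in Meis1-OE, from 4060, 4323 and 4040 counts, and at 19.19, 12.13 and 8.121 CPM in YFP-CTRL, from 652, 495 and 369 counts. Every Meis1-OE library lay above every YFP-CTRL library, and the 3 Meis1-OE values were within a narrow range. The means were 90.44 ± 4.237 CPM in Meis1-OE and 13.15 ± 5.606 CPM in YFP-CTRL (SD, n = 3 each), a 6.89-fold difference with a log2 fold change of 2.785 (SE 0.298, adjusted p = 0.00489, edgeR quasi-likelihood test with Benjamini-Hochberg adjustment over all genes tested). Ptgs1 passed the threshold of 0.05 under each of the 14 alternatives run.

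Ptgs2 (Entrez 19225, chromosome 1, 150100031 to 150108234) encodes COX-2, the inducible isoform. Its level was 112.3, 65.22 and 58.48 CPM in Meis1-OE, from 5131, 2960 and 2708 counts, and 426.7, 515.3 and 156.6 CPM in YFP-CTRL, from 14494, 21023 and 7116 counts. The conditions did not overlap, but YFP-CTRL library C lay much nearer to the Meis1-OE libraries than to the other YFP-CTRL libraries. The means were 78.65 ± 29.3 CPM in Meis1-OE and 366.2 ± 186.8 CPM in YFP-CTRL (SD, n = 3 each), 4.656-fold lower in Meis1-OE, with a log2 fold change of -2.22 (SE 0.457, edgeR adjusted p = 0.0349). This call was lost when any one library was left out other than YFP-CTRL library C (edgeR adjusted p from 0.0725 to 0.17). With the proliferation score as a covariate the log2 fold change was -1.32 and the call was also lost (edgeR adjusted p = 0.164). The score hardly varied within Meis1-OE (6.41, 6.39 and 6.45), so the slope in this fit rests mainly on the YFP-CTRL libraries.

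The balance of the isoforms was read in each library. Levels can be compared between genes only per length, so the CPM of each gene was divided by its exon length in kb. On this scale Ptgs1 stood at 22.87, 24.52 and 22.46 CPM per kb in Meis1-OE and at 4.942, 3.124 and 2.091 in YFP-CTRL. Ptgs2 stood at 27.1, 15.74 and 14.12 CPM per kb in Meis1-OE and at 103, 124.4 and 37.8 in YFP-CTRL. Ptgs1 was above Ptgs2 in Meis1-OE libraries B and C, slightly below it in Meis1-OE library A, and far below it in the 3 YFP-CTRL libraries. The lengths are merged exons, not those of the transcripts present. Where the isoforms were close, as in Meis1-OE library A, their order is therefore uncertain.

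The share of Ptgs1 in the per-kb sum of both isoforms was 45.8%, 60.9% and 61.4% in Meis1-OE and 4.58%, 2.45% and 5.24% in YFP-CTRL. The mean share was 56.03% ± 8.87 in Meis1-OE and 4.09% ± 1.46 in YFP-CTRL (SD, n = 3 each, exact two-sided permutation p = 0.1, the smallest that 3 libraries against 3 allow). As a share of raw counts, Ptgs1 made up 44.2% (95% Wilson interval 43.2 to 45.2), 59.4% (58.2 to 60.5) and 59.9% (58.7 to 61.0) in Meis1-OE. The corresponding shares were 4.3% (3.99 to 4.64), 2.3% (2.11 to 2.51) and 4.93% (4.46 to 5.44) in YFP-CTRL, with intervals that cover counting error only. In YFP-CTRL library C, with a proliferation score of 6.39, the share was 5.24%. Both isoforms had their lowest YFP-CTRL level there, at 2.091 (Ptgs1) and 37.8 (Ptgs2) CPM per kb. This is 1 library, and the part of proliferation in the share was not tested.

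The summed cyclooxygenase level was less clearly apart. It was 49.97, 40.26 and 36.58 CPM per kb in Meis1-OE and 107.9, 127.5 and 39.89 in YFP-CTRL. The means were 42.27 ± 6.92 and 91.78 ± 46 CPM per kb (SD, n = 3 each, exact two-sided permutation p = 0.3), and YFP-CTRL library C fell within the range of the Meis1-OE libraries.

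**Figure D1:**
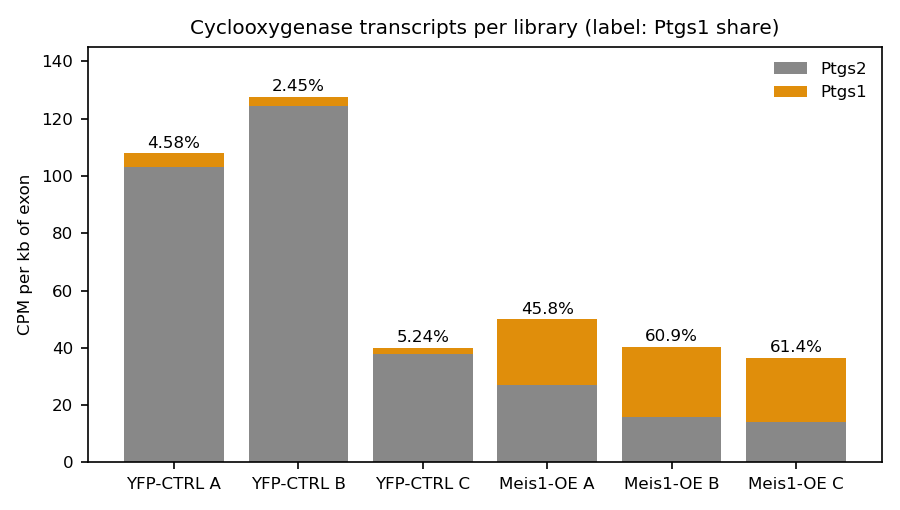
Level of Ptgs1 (orange) and Ptgs2 (grey) in CPM per kb of exon, stacked, for each of the 6 libraries, with the Ptgs1 share written above each bar. The share was 2.45% to 5.24% in YFP-CTRL and 45.8% to 61.4% in Meis1-OE, while the bar of YFP-CTRL C (39.89 CPM per kb) is as low as the Meis1-OE bars.

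Ptgis (Entrez 19223, chromosome 2, 167203194 to 167252150) encodes prostacyclin synthase. It was low throughout, at 0.3719, 0.5949 and 0.5615 CPM in Meis1-OE, from 17, 27 and 26 counts, and at 0.1178, 0.7353 and 1.497 CPM in YFP-CTRL, from 4, 30 and 68 counts. The 3 YFP-CTRL libraries enclosed all the Meis1-OE values. The log2 fold change was -0.64 (SE 0.708, edgeR adjusted p = 0.605), and it turned to 0.197 without YFP-CTRL library C. The difference between the means, 0.5094 and 0.7832 CPM, was smaller than the SD of 0.6906 CPM among the YFP-CTRL libraries. In GRCm38.p6, 2090 bases of the span of Ptgis, introns included, overlap the span of the predicted gene Gm52569. Whether exons overlap was not checked, and no source says that reads were counted by strand. The Ptgis count may therefore hold reads of Gm52569.

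Among the receptors, Ptgfr was the lower one and Ptger4 the higher one in Meis1-OE EC. Ptgfr (Entrez 19220, chromosome 3, 151798610 to 151837528) encodes FP, the receptor for prostaglandin F2α. Its level was 1.969, 1.146 and 1.533 CPM in Meis1-OE, from 90, 52 and 71 counts, and 3.062, 8.554 and 19.34 CPM in YFP-CTRL, from 104, 349 and 879 counts. The conditions did not overlap, and the YFP-CTRL libraries spread widely, from a value close to Meis1-OE library A to one far above it. The means were 1.549 ± 0.4119 and 10.32 ± 8.284 CPM (SD, n = 3 each), and the fitted level was 6.669-fold lower in Meis1-OE, with a log2 fold change of -2.74 (SE 0.628). The size rested on YFP-CTRL library C, without which the log2 fold change was -1.93. Without YFP-CTRL library A the value was -3.17, and it was -3.75 in the fit that held the proliferation score as a covariate. The slope in that fit, as for Ptgs2, rests mainly on the YFP-CTRL libraries.

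Ptger4 (Entrez 19219, chromosome 15, 5233399 to 5244187) encodes EP4, a receptor for prostaglandin E2. It stood at 12.69, 10.84 and 10.69 CPM in Meis1-OE, from 580, 492 and 495 counts, and at 5.358, 5.907 and 5.898 CPM in YFP-CTRL, from 182, 241 and 268 counts. The libraries of each condition were close together and the conditions did not overlap. The means were 11.41 ± 1.114 CPM in Meis1-OE and 5.721 ± 0.3145 CPM in YFP-CTRL (SD, n = 3 each), a 1.992-fold difference with a log2 fold change of 0.995 (SE 0.146, edgeR adjusted p = 0.012). The call was lost without Meis1-OE library B, Meis1-OE library C or YFP-CTRL library B (edgeR adjusted p = 0.0791, 0.0673 and 0.056), while the log2 fold change stayed between 0.913 and 1.142 over the 14 alternatives.

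Ptger1 (Entrez 19216, chromosome 8, 83666644 to 83672756) encodes EP1, which also binds prostaglandin E2. Its level was 2.932, 1.322 and 1.555 CPM in Meis1-OE and 2.267, 1.373 and 1.629 CPM in YFP-CTRL. The conditions overlapped, and the log2 fold change was 0.145 (SE 0.366, edgeR adjusted p = 0.841), turning to -0.28 without Meis1-OE library A. The level of EP1 transcript is uncertain, since no source says that reads were assigned by strand and the count may hold reads that are not from Ptger1.

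The other receptors were at or near the limit of detection. Ptger2 (EP2) had 0 counts in all 6 libraries. If its reads were counted at all, this allows at most 0.0883 CPM in the shallowest of them. The annotation is not given, so an absent transcript and one left uncounted cannot be told apart. Ptger3 (EP3) had 1 count in Meis1-OE library C, 2 counts in YFP-CTRL library C and 0 elsewhere. Ptgir, the prostacyclin receptor, had 1, 3 and 3 counts in Meis1-OE and 3, 2 and 6 in YFP-CTRL. Tbxa2r, the thromboxane receptor, had 2, 12 and 13 counts in Meis1-OE and 6, 1 and 4 in YFP-CTRL. These counts give no comparison between conditions, and no fold is stated for them.

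**Figure D2:**
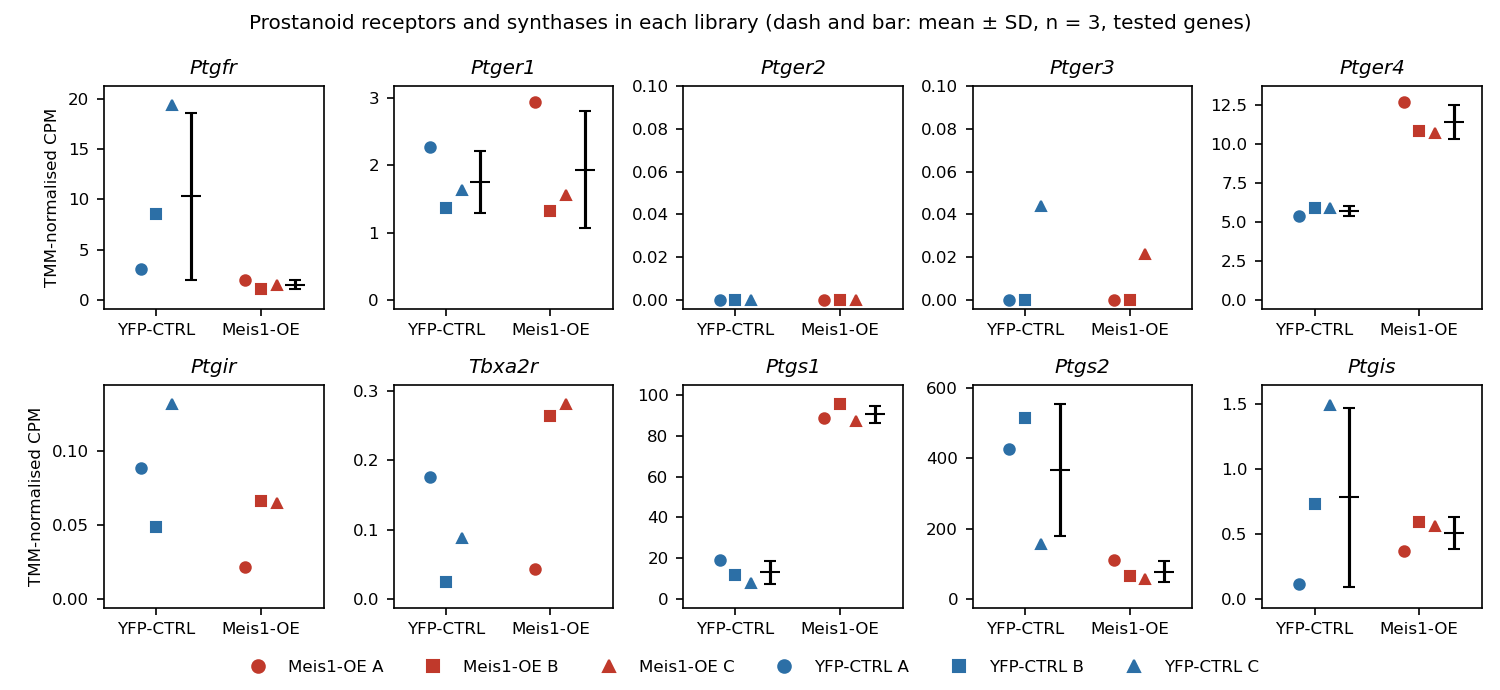
TMM-normalised CPM of the 10 genes in each library, on a linear axis of its own for each gene, with red for Meis1-OE and blue for YFP-CTRL and the marker shape giving the library letter. Dash and bar are mean ± SD (n = 3) for the 6 tested genes, of which Ptgfr and Ptgs2 have all Meis1-OE values below YFP-CTRL and Ptger4 and Ptgs1 have all above.

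Of the 5 tested members other than Ptgfr, Ptgs1 and Ptger4 were higher, Ptgs2 was lower, and Ptger1 and Ptgis did not pass the threshold. Of all 16065 genes tested, the share past the threshold was 4.14% in the higher and 2.73% in the lower direction, or 6.87% in either. Groups did not overlap for 4 of the 6 tested members, Ptgfr included, and for 33.1% of all genes tested. The family was chosen from this same contrast, so nothing is read from these shares. The median log2 fold change of all genes tested was 0.01.

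Per kb of exon, the receptor transcripts were mostly Ptgfr in YFP-CTRL libraries B and C and mostly Ptger4 in the Meis1-OE libraries. Ptger4 stood at 1.91, 1.63 and 1.61 CPM per kb in Meis1-OE and at 0.806, 0.889 and 0.887 in YFP-CTRL. Ptgfr stood at 0.451, 0.263 and 0.352 CPM per kb in Meis1-OE and at 0.702, 1.96 and 4.43 in YFP-CTRL. In YFP-CTRL library A these 2 receptors were nearly level, with Ptger4 slightly ahead, an order that is uncertain with merged exon lengths.

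As a share of the summed receptor level per kb, Ptgfr made up 15.1%, 11.3% and 14.3% in Meis1-OE and 33.6%, 62.2% and 77.1% in YFP-CTRL. Ptger4 made up 64%, 70% and 65.5% in Meis1-OE and 38.5%, 28.2% and 15.4% in YFP-CTRL. These shares contain Ptgfr and are a description. Ptger1, whose count is uncertain, made up between 5.71% and 21.9%, Tbxa2r between 0.441% and 6.48%, and Ptgir at most 1.27%. The summed receptor level was 2.98, 2.33 and 2.46 CPM per kb in Meis1-OE and 2.09, 3.16 and 5.75 in YFP-CTRL, so the conditions overlapped.

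**Figure D3:**
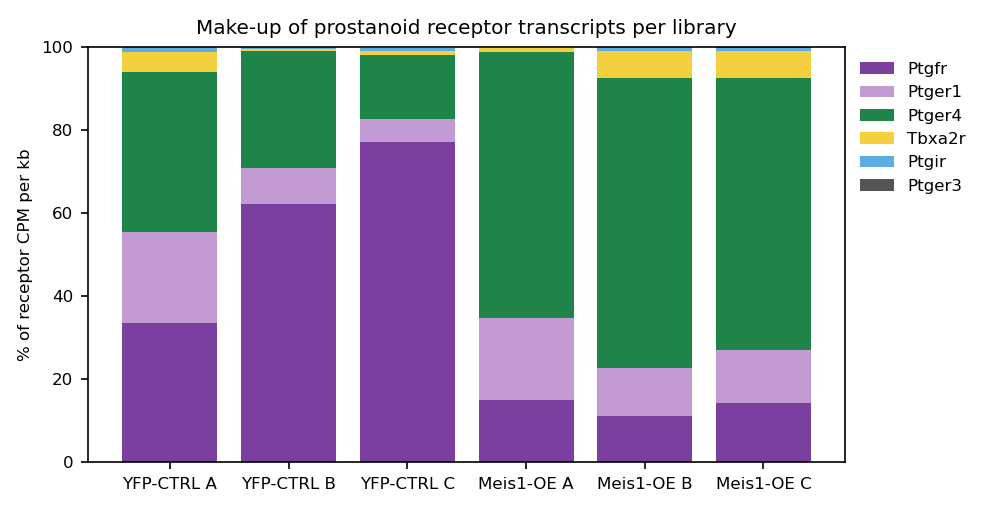
Share of each receptor gene in the summed CPM per kb of the detected receptors, one bar per library, in percent. Ptger4 (green) takes 64% to 70% in Meis1-OE and 15.4% to 38.5% in YFP-CTRL, and Ptgfr (dark purple) takes 11.3% to 15.1% and 33.6% to 77.1%.

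Other measures differed between the libraries along with these genes. Among the YFP-CTRL libraries, library C had the highest proliferation score, the highest Ptgfr and Ptgis and the lowest Ptgs2 and Ptgs1. Mki67, a gene of cycling cells, stood at 671.7, 659.7 and 627.9 CPM in Meis1-OE and at 63.77, 204.7 and 589.4 CPM in YFP-CTRL. At the like score of YFP-CTRL library C and the Meis1-OE libraries, Ptgfr was 19.34 CPM against 1.146 to 1.969 CPM, Ptgs1 was 8.121 against 87.25 to 95.25 CPM, and Ptger4 was 5.898 against 10.69 to 12.69 CPM. Ptgs2 was 156.6 CPM against 58.48 to 112.3 CPM. This is a comparison with 1 YFP-CTRL library and has no test.

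Markers of other cell types also differed among the libraries. The 6 fibroblast markers summed to 11.9 to 12 CPM in Meis1-OE and 16.1 to 49.5 CPM in YFP-CTRL, nearly all of it Pdgfra, a growth factor receptor of mesenchymal cells, which was lowest among YFP-CTRL libraries in C, at 15.56 CPM. Col1a1, a collagen gene among these markers, was at most 0.196 CPM. Acta2, a smooth muscle actin, stood at 3.325, 1.41 and 0.9934 CPM in Meis1-OE and at 0.2061, 2.181 and 19.85 CPM in YFP-CTRL, with its highest value in the library with the highest Ptgfr. The part of other cells, or of proliferation, in the levels of the prostanoid genes was not tested. In these bulk libraries fewer cells of a type and less RNA per cell cannot be told apart.

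**Figure D4:**
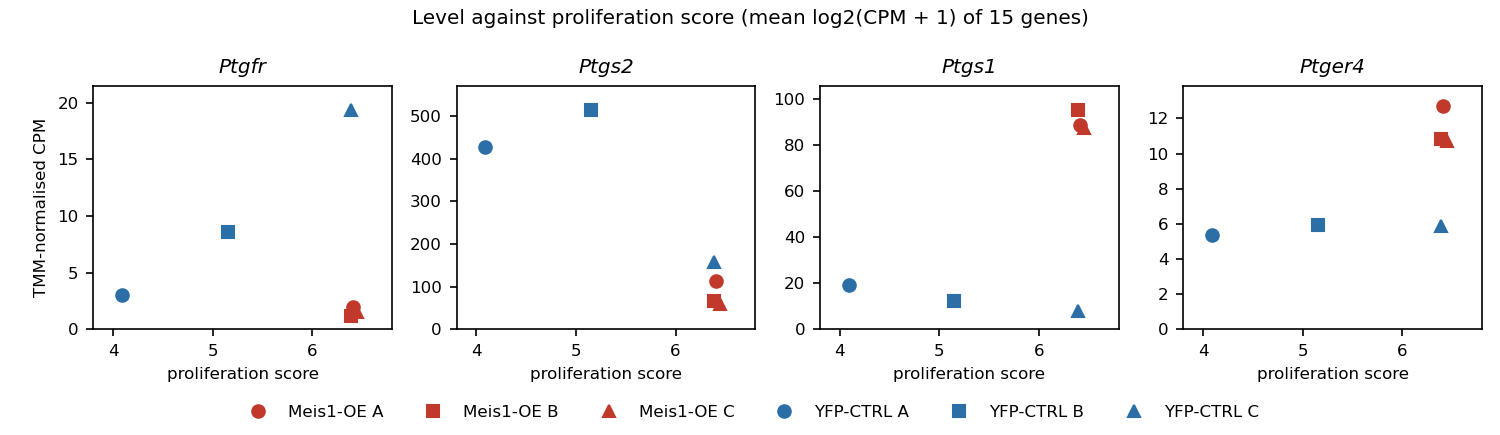
Level of Ptgfr, Ptgs2, Ptgs1 and Ptger4 in TMM-normalised CPM (linear axes) against the proliferation score, the mean log2(CPM + 1) of 15 proliferation genes, for the 6 libraries. YFP-CTRL C (blue triangle), at a score of 6.39, lies beside the Meis1-OE libraries on the horizontal axis and outside their range in all 4 genes, above it in Ptgfr and Ptgs2 and below it in Ptgs1 and Ptger4.

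The genes with the pattern most like Ptgfr were Tnc, Gm2115, Adam12, Sorcs2 and Mest. Likeness was the root mean square difference from Ptgfr in log2(CPM + 1), centred on each gene's own mean over the 6 libraries, among the other 13013 tested genes with a mean of at least 1 CPM. It was 0.392 for Tnc (the matrix protein tenascin C), 0.425 for the predicted gene Gm2115, 0.46 for Adam12 (a metalloprotease), 0.465 for Sorcs2 (a sorting receptor) and 0.466 for Mest (an imprinted gene), against a median of 1.182 over the genes compared. The order is a description, since these genes were picked by their likeness. Tnc stood at 95.98, 51.2 and 49.82 CPM in Meis1-OE and at 96, 282.9 and 287.9 CPM in YFP-CTRL. Gm2115, like Ptgfr, spread widely within YFP-CTRL, at 3.474, 9.437 and 22.69 CPM, against 4.813, 3.922 and 3.218 CPM in Meis1-OE. Mest stood at 71.78, 72.95 and 85.3 CPM in Meis1-OE and 59.53, 198.9 and 336.4 CPM in YFP-CTRL. In Gm2115 and Mest, unlike Ptgfr, YFP-CTRL library A lay among or below the Meis1-OE libraries.

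The rest of the pathway was read from 7 lists with 95 genes. Of these, 62 passed the filter, and 5 were higher, 4 were lower and 53 did not pass the threshold in Meis1-OE EC (edgeR, adjusted over all genes tested), beside the 4.14% and 2.73% of all genes. Their median log2 fold change was -0.07, with 30 above 0 and 32 below, against 0.01 for all genes tested. The 5 higher genes include Adcy7 and Adcy8, which passed the filter through the Meis1-OE libraries alone. None of the 9 passed when Meis1-OE library B, Meis1-OE library C or YFP-CTRL library B was left out, and without YFP-CTRL library C 15 list genes were higher and 14 were lower. Of the alternatives that tested them, Slco2a1, Slco3a1 and Cyp2j6 passed in 10 of 14, Rapgef3 in 9 of 14, Adcy7 and Adcy8 in 8 of 13 each, Cebpd in 6 of 14, and Pla2g12a and Gna12 in 5 of 14 each.

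Upstream of the cyclooxygenases, 1 of 6 tested genes of arachidonate release was lower and none was higher. Pla2g12a, a secreted phospholipase A2, stood at 8.554, 7.249 and 8.66 CPM in Meis1-OE and at 13.48, 13.53 and 11.62 CPM in YFP-CTRL, without overlap (log2 fold change -0.66, SE 0.146, edgeR adjusted p = 0.043). Pla2g4a, the cytosolic phospholipase A2 that releases arachidonate on calcium signals, stood at 51.85, 53.16 and 51.87 CPM and at 75.98, 92.8 and 47.05 CPM in the same order. It overlapped between conditions because of YFP-CTRL library C (log2 fold change -0.46, SE 0.23, edgeR adjusted p = 0.254).

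Downstream of the cyclooxygenases, none of 5 tested terminal synthase genes passed the threshold in edgeR, with log2 fold changes from -0.46 to 0.72, and 3 had an unadjusted p under 0.05. DESeq2 called 2 of them, Ptges3 lower (log2 fold change -0.47, adjusted p = 0.0218) and Akr1c18 higher (log2 fold change 0.71, adjusted p = 0.0188). Ptges3, a prostaglandin E synthase that is also an Hsp90 co-chaperone, was the most abundant of the 5, at a mean of 196 CPM. Ptges, the inducible prostaglandin E synthase, had at most 4 counts in a library, and Ptgds and Hpgds, the prostaglandin D synthases, had at most 5 and 3. Tbxas1, thromboxane synthase, had 6, 4 and 4 counts in Meis1-OE and 0, 1 and 1 in YFP-CTRL. Ptgdr, the prostaglandin D receptor, and Hpgd, the dehydrogenase that inactivates prostaglandins, had 0 counts in all 6 libraries, with the same limit as Ptger2. Neither of the 2 tested genes among the other receptors, the nuclear receptors Ppard and Pparg, passed the threshold in edgeR or DESeq2, and Ppard had an unadjusted p under 0.05.

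Outside the members, 2 transporter genes were higher in Meis1-OE EC. Slco2a1, the prostaglandin transporter that takes prostaglandins up into cells, stood at 6.148, 10.05 and 10.19 CPM in Meis1-OE and at 0.3827, 0.9804 and 2.069 CPM in YFP-CTRL. Its log2 fold change was 2.92 (SE 0.532, 7.542-fold, edgeR adjusted p = 0.0242). Slco3a1, a related organic anion transporter, stood at 120.4, 168.7 and 178.7 CPM and at 62.26, 66.89 and 88.03 CPM in the same order (log2 fold change 1.11, SE 0.197, edgeR adjusted p = 0.0223). For both genes the Meis1-OE libraries lay above all YFP-CTRL libraries. Of the 6 tested genes of transport and breakdown, the other 4 did not pass.

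Of 23 tested genes that couple the receptors to cAMP, calcium and other signals, 2 were higher and 2 were lower, with a median log2 fold change of 0.025. DESeq2 also called Adcy9, an adenylyl cyclase gene, higher (log2 fold change 0.483, DESeq2 adjusted p = 0.047). It called Grk5, a receptor kinase gene, lower (log2 fold change -0.636, DESeq2 adjusted p = 0.0453). The adenylyl cyclase genes Adcy7 and Adcy8 were called higher from very low levels, but they passed the filter on low counts through the Meis1-OE libraries alone, and neither was tested where at least 10 counts in every library were asked for. Adcy7 had 39, 51 and 24 counts in Meis1-OE and 0, 5 and 2 in YFP-CTRL (edgeR adjusted p = 0.0251), and Adcy8 had 14, 26 and 35 and then 0, 2 and 4 (edgeR adjusted p = 0.0345). Their fitted fold changes depend on the prior count at such levels and are not stated. Rapgef3, the cAMP-activated Rap exchange factor Epac1, stood at 70.8, 49.31 and 54.23 CPM in Meis1-OE and 86.96, 104.6 and 104.7 CPM in YFP-CTRL (log2 fold change -0.765, SE 0.164, edgeR adjusted p = 0.0392). Gna12, the G12 alpha subunit, stood at 172.9, 168 and 193.6 CPM and at 268.1, 324.3 and 234.9 CPM in the same order (log2 fold change -0.63, SE 0.143, edgeR adjusted p = 0.0459). Gnas, which encodes the Gs alpha subunit used by EP4, was the most abundant gene of the list, at a mean of 861 CPM, and did not pass (log2 fold change -0.07, edgeR adjusted p = 0.682).

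Of 6 tested genes of other eicosanoids 1 was higher. Cyp2j6, a P450 of a family that can epoxidise arachidonate, stood at 16.8, 23.05 and 19.87 CPM in Meis1-OE and at 7.36, 8.089 and 11.07 CPM in YFP-CTRL (log2 fold change 1.17, SE 0.202, edgeR adjusted p = 0.0204). Of 14 tested genes listed as regulators of Ptgs2, 1 was lower. Cebpd, the transcription factor C/EBP delta, stood at 11.49, 13.42 and 17.43 CPM in Meis1-OE and at 46.93, 35.44 and 22.78 CPM in YFP-CTRL (log2 fold change -1.31, SE 0.281, edgeR adjusted p = 0.0393). Cebpd, like Ptgs2, had its lowest YFP-CTRL value in library C. Most of the tested regulators that did not pass had it there too, so this was not particular to Cebpd.

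**Figure D5:**
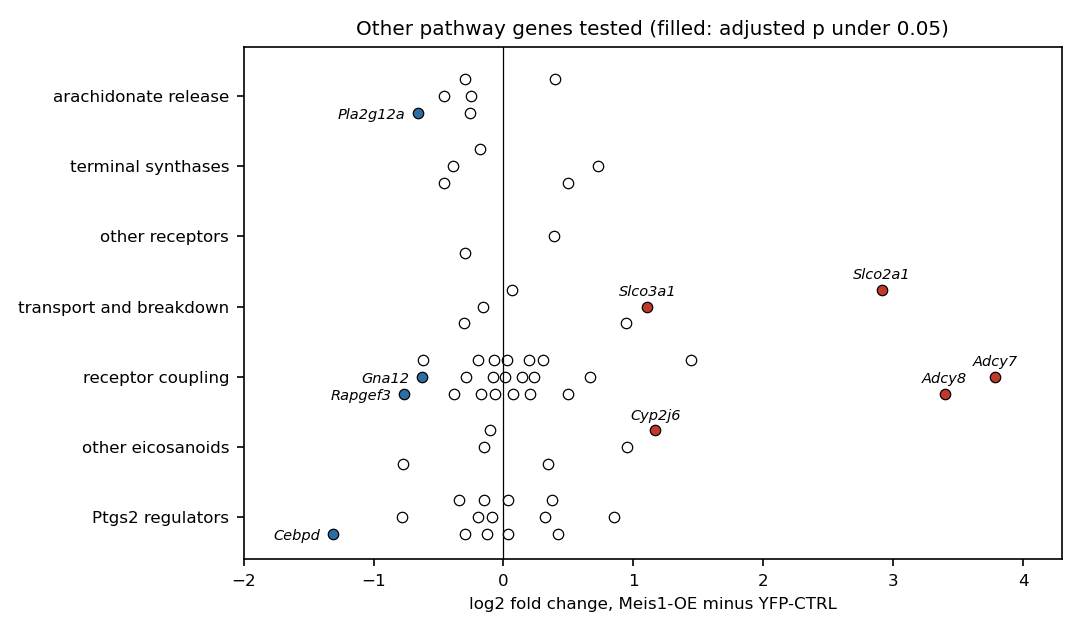
Log2 fold change (Meis1-OE minus YFP-CTRL) of the 62 tested genes of 7 pathway lists, 1 list per row, with points offset vertically only to separate them. Filled points passed the threshold (red higher, blue lower, 5 and 4 genes), and the filled points furthest from 0 are Adcy7, Adcy8 and Slco2a1, of which the cyclases rest on counts of 5 or fewer in YFP-CTRL. How far these 2 cyclases lie from 0 depends on the prior count.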

How the data were processed

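Ribodepleted RNA-seq of 3 Meis1-OE and 3 YFP-CTRL libraries was analysed. The authors deposited expected counts per gene, not normalized, and the labels name mm10. The aligner, the counting tool and the annotation are not given in the sources used here. Non-whole values (7767 to 8411 genes, by library) were rounded. Columns carry letters, with no statement of which replicate number each letter is. Counts were compared in R 4.3.3 with edgeR 4.0.16 (TMM, filterByExpr, quasi-likelihood test, 16065 genes kept, Benjamini-Hochberg threshold 0.05), and SEs were derived from the F statistic. DESeq2 1.42.0, which the study used, was an alternative. The others were edgeR with DESeq2 size factors or with library totals, a filter of 10 counts in all libraries or none, robust dispersion, omission of single libraries, the letter as a block, and the proliferation score as a covariate. Lengths per gene were merged exons of an NCBIM37 annotation, and coordinates and start sites came from RefSeq GRCm38.p6 by symbol. Genes to name were the 10 members, Meis1, list genes past the threshold, Ptges, Tbxas1, Ptgds, Hpgds, Ptgdr, Slco2a1, Hpgd, Pla2g4a and the 5 genes most like Ptgfr. Ptges3, Akr1c18, Adcy9, Grk5, Gnas, Ppard, Pparg and the marker genes were added after their values were seen. An overlap of one member with another gene is not reported here. The members and lists were chosen with earlier results of these data known. The edgeR and DESeq2 scripts were tested on simulated data. Without molecular identifiers, reads are not separate molecules, so floors and intervals hold counting error alone. Replicates of a condition were separate transductions, per the study. Figures were drawn with matplotlib 3.10.9.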

Additional observations from a re-analysis of the deposited data

How the results depend on the processing

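Of the 5 tested members other than Ptgfr, 2 were higher and 1 was lower, and over the libraries left out in turn these counts were 1 to 2 and 0 to 1. With the proliferation score as a covariate 0 were lower. The log2 fold change of Ptgs1 lay between 2.526 and 3.522 over 14 alternatives. The value of Ptgs2 lay between -2.59 and -1.32, and that of Ptgfr between -3.75 and -1.93. Leaving out Meis1-OE library A reversed Ptger1 (-0.282, range 0.36 to -0.282 over libraries left out), and leaving out YFP-CTRL library C reversed Ptgis (0.197, range -1.142 to 0.197). Among the list genes, the 5 higher became 9 with library totals, 3 with at least 10 counts in every library, 2 with the proliferation covariate and 0 to 15 over libraries left out. The 4 lower became 0 with library totals, 2 with no filter and 0 to 14 over libraries left out, and the 15 and 14 came without YFP-CTRL library C. With DESeq2, 7 list genes were higher and 6 were lower. Library totals moved the median log2 fold change of all genes to 0.152, and 1048 genes were then higher and 179 lower, against 665 and 438. DESeq2 called 1124 higher and 1115 lower, and edgeR without YFP-CTRL library C 2717 and 2498, without Meis1-OE library B 115 and 16. The cause of these shifts was not tested. The column letter does not pair the libraries by any label. Deviations from the group means correlated at 0.245, 0.190 and 0.081 between libraries of letters A, B and C, and Meis1-OE library C correlated best with YFP-CTRL library B (0.249). With the letter as a replicate block, 544 genes were higher and 189 lower, 0 list genes were lower, and Ptgs1 (2.868), Ptger4 (0.991) and Ptgs2 (-2.106) stayed past the threshold.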
